A study of Mus musculus with 26 samples.

Results

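The levels of 9 genes of the retinoic acid (RA) pathway were followed through poly(A) RNA-seq of mouse R1 embryonic stem cells (ESCs), a line grown here with LIF on gelatin. They were taken by name as the nuclear RA receptors (Rara, Rarb and Rarg), enzymes that act on RA or its precursor (Cyp26a1, Cyp26b1 and Dhrs3), cellular RA-binding proteins (Crabp1 and Crabp2) and the membrane receptor for retinol carried by its plasma binding protein (Stra6). All 9 were among the 55291 genes counted and all 9 were among the 20953 genes that passed the filter on low counts. The rule that names them uses no measured value, although it was written with earlier results of these data known. In the textbook pathway, retinol enters the cell, is oxidised to retinaldehyde and then to RA, and RA binds a receptor of the RAR family that sits on DNA as a heterodimer with an RXR. Binding of RA exchanges corepressors for coactivators at direct repeats of a short half-site. CYP26 enzymes oxidise RA and DHRS3 returns retinaldehyde to retinol, so the pathway holds its own brakes, and several of its genes are classical RA targets in ESCs.

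The series holds 26 libraries in 13 groups of 2 replicates, all from R1 cells, and asks how DUX, a transcription factor of the totipotent 2-cell stage, acts in cells driven toward a totipotent-like state. Wild-type groups were untreated ESCs (ESC), cells given the solvent DMSO, cells given 0.53 µM RA for 48 h, and cells given 4 nM pladienolide B (PlaB, an inhibitor of splicing) for 4 days. Doxycycline for 24 h induced Dux (Dux OE), a Dux mutant deficient in phase separation (DuxR70A OE) or Zscan4 (Zscan4 OE), with 4 µg/mL stated for induction of DUX and no dose given for Zscan4. RA, PlaB and Zscan4 OE were repeated in cells with shRNA knockdown of Dux (Dux KD), and RA, PlaB and Dux OE in cells that lack a super-enhancer at the Tdpoz genes (SE KO). The labels give neither the shRNA nor whether the SE KO cells were 1 clone, and do not say whether replicates were separate cultures, so that p-values measure the spread between these libraries only. No library of untreated or DMSO-treated SE KO or Dux KD cells is in the design. The effect of the genotype and a changed response to RA therefore cannot be told apart.

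Library totals ran from 14401452 to 39402840 counts, and 3 counts, taken as the floor of detection, corresponded to 0.0796 to 0.226 CPM (counts scaled by library total and the TMM factor of edgeR). Floors cover counting error only. SE KO RA replicate 1 is titled SE KO but carries the genotype label WT, and was grouped by its title. Both Dux KD Zscan4 OE libraries carry the treatment label "no" and no time. The DMSO libraries carry no time either. Whether they match 48 h of RA or 4 days of PlaB in culture time is therefore not known. Duxf3, the Dux copy in the table, had 1 and 0 counts in the DMSO libraries, 49 and 59 in those of RA, 2 and 10 in those of SE KO RA and 16 and 6 in those of Dux KD RA. It had 55 and 48 counts in Dux OE but 0 and 0 in the libraries labelled DuxR70A OE, beside 3 and 0 in ESC. The counts therefore do not show the induction that this label names. Duxf3 also had 191 and 181 counts in PlaB, where no Dux construct was induced. Whether reads of an induced construct are counted under Duxf3 was not tested, so these counts do not settle whether the mutant was expressed. Over the genes that PlaB changed, the median of the ratio of each group's log2 difference from DMSO to that of PlaB was 0.29 in SE KO PlaB and 0.115 in Dux KD PlaB, beside 0.0901 to 0.276 in the groups that received no PlaB. By this median both groups carried little of the PlaB pattern. Summed over 8 markers of 2-cell-like cells, the level was 581 and 480 CPM in SE KO PlaB. It was 5.01 and 5.20 CPM in Dux KD PlaB, 5.22 and 3.07 in DMSO and 7186.2 and 7252.5 in PlaB. The paper reports a weaker response of such genes to PlaB after Dux knockdown, and impaired reprogramming by PlaB after deletion of the super-enhancer. What part genotype or treatment had in the low ratios was not tested.

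Marker genes moved with RA as well. The summed level of 8 ESC markers was 8303 to 8424 CPM in DMSO, 4149 to 4172 in RA, 3267 to 3270 in SE KO RA and 4423 to 4436 in Dux KD RA, with none at 0, and 7 of the 8 were called lower in RA than in DMSO. Of 9 tested primitive endoderm markers, 8 were called higher in RA than in DMSO, and their summed level, over 10 listed genes, was 44.3 to 46.4 CPM in DMSO, 176 to 181 in RA, 107 to 111 in SE KO RA and 244 to 247 in Dux KD RA. Foxa2, Afp and Ttr were at 0 in DMSO, and Afp and Ttr at 0 in SE KO RA. The sum of 7 neural progenitor markers was 36.9 to 37.4 CPM in DMSO, 58.7 to 60.1 in RA, 106 to 108 in SE KO RA and 51.6 to 53.1 in Dux KD RA, with 1 of 5 tested called higher in RA and Neurog2 at 0 in DMSO. The sum of 7 trophectoderm markers was 110 to 111 CPM in DMSO, 114 to 125 in RA, 146 to 152 in SE KO RA and 126 to 128 in Dux KD RA, with Elf5 at 0 in SE KO RA. The sum of 7 fibroblast markers was 34.1 to 34.9 CPM in DMSO, 51.6 to 60.6 in RA, 41.7 to 46.0 in SE KO RA and 25.3 to 25.97 in Dux KD RA, and Col3a1, Dcn, Lum and Postn, which define the type, were at 0 in DMSO. Of these lists, 2 of 6 tested trophectoderm and 2 of 5 tested fibroblast markers were called higher in RA than in DMSO. The sum of 8 markers of 2-cell-like cells was 3.07 to 5.22 CPM in DMSO, with Zfp352 at 0, and 466 to 537 in RA, 51.4 to 54.0 in SE KO RA and 350 to 364 in Dux KD RA. All 8 were called higher in RA than in DMSO and 7 of 8 lower in SE KO RA than in RA. Of all genes tested, 20.6% were called higher and 10.4% lower in RA than in DMSO, and 11.0% lower in SE KO RA than in RA. In untreated ESC the sum was 5637 to 5640 CPM for ESC markers and 80.0 to 83.5 for primitive endoderm. It was 23.8 to 24.8 there for neural progenitor and 84.7 to 86.9 for trophectoderm markers. For fibroblast and 2-cell-like markers it was 24.5 to 26.6 and 19.6 to 23.0 CPM in ESC. The part of these cell types in the values that follow was not tested, and in bulk RNA fewer cells of a type and less RNA per cell cannot be told apart.

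Among the RefSeq start sites of these genes (GRCm38.p6), 17 windows of 300 bases, from 250 before to 50 after a start, were at hand for 8 members. No window was given for Crabp2. Each was searched on both strands for a half-site that read AGGTCA or else AGTTCA or else GGGTCA or else GGTTCA, arranged as direct repeats with 1, 2 or 5 bases between, the arrangements through which RAR and RXR are known to bind. Only 2 windows held any such repeat, each with 5 bases between, and they are shown for that reason, with the half-sites in capitals. The Rarb window, at an internal start of the gene, is chr14:16575427-16575726 on the minus strand, with the repeat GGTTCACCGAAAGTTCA from base -53 to base -37 counted from the start site. The Cyp26a1 window is chr19:37697558-37697857 on the plus strand, and its repeat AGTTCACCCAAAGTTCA reads on the opposite strand, from base -32 to base -16.
Rarb: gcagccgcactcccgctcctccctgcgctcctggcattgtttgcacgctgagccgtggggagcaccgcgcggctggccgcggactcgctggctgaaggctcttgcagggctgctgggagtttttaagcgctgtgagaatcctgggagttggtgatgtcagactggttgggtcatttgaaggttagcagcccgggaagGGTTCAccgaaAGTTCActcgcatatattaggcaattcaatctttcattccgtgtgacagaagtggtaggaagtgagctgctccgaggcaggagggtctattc
Cyp26a1: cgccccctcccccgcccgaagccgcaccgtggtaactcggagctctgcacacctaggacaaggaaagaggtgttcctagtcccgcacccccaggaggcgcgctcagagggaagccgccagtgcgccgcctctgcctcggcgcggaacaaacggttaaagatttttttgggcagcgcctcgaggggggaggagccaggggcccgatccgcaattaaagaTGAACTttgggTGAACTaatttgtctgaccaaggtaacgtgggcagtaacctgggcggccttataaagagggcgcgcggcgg
A repeat with 5 bases between was present in 0.0974% of 32851 such windows in the table, 1 with 1 base between in 0.222%, 1 with 2 bases between in 0.268%, any of these in 0.588%, and a single half-site in 43.7%. A match describes letters in a window and not a bound site, and a window without a match says nothing of elements elsewhere.

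In cells given RA, Stra6, Crabp2, Rarb and the enzymes Cyp26a1, Cyp26b1 and Dhrs3 were higher than in DMSO, whereas Rara, Rarg and Crabp1 stayed inside the fold limit. Of the 9 members, 6 were called higher in RA than in DMSO and 0 lower, where a call was a Benjamini-Hochberg adjusted p under 0.05 from edgeR's quasi-likelihood test with a change of at least 1 in absolute log2. Of all genes tested, 31.0% were called, 20.6% higher and 10.4% lower. The median log2 fold change was 3.27 over the 9 members and 0.11 over all genes. Calls in this comparison were 66.5% higher ones, and 76.7% when libraries were scaled by their total alone, which put the median of all genes at 0.30.

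Among the enzymes, Cyp26a1 (chr19:37697798-37701536, plus strand), the main RA hydroxylase of the early embryo, had 3 and 8 counts in the DMSO libraries and 1649 and 1472 in the RA libraries. Its level rose from 0.304 ± 0.19 to 70.6 ± 2.9 CPM (SD of 2 libraries, as throughout), which is 7.82 ± 0.26 (SE) on the log2 scale (edgeR adjusted p = 7.2e-19). The DMSO value rests on few counts, and over 12 settings, among them ESC as the control, this log2 fold change lay between 7.31 and 9.96. Cyp26b1 (chr6:84571414-84593908, minus strand), a second RA hydroxylase, went from 3 and 4 counts to 240 and 220. This rise, from 0.195 ± 0.035 to 10.4 ± 0.23 CPM, was 5.69 ± 0.39 (SE) on the log2 scale (edgeR adjusted p = 1.2e-12). Per length of exon the enzymes were far apart in RA, Cyp26a1 at 35.6 ± 1.5 RPKM (CPM per kb) and Cyp26b1 at 1.94 ± 0.043 RPKM. Dhrs3 (chr4:144892827-144928209, plus strand), the retinaldehyde reductase, was already present in DMSO, with 57 and 64 counts, and reached 634 and 676 in RA. It rose 8.79-fold, from 3.37 ± 0.19 to 29.7 ± 2.5 CPM (edgeR adjusted p = 1.8e-14). With ESC as the control the log2 fold change of Dhrs3 was 4.06 in place of 3.14.

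Stra6 (chr9:58063788-58153996, plus strand), which passes retinol across the plasma membrane, had 5 and 4 counts in DMSO and 687 and 692 in RA. Its level of 0.251 ± 0.045 CPM in DMSO became 31.2 ± 1.4 CPM in RA, or 6.92 ± 0.32 (SE) on the log2 scale (edgeR adjusted p = 7.1e-16). The binding proteins parted. Crabp2 (chr3:87948666-87953376, plus strand), known for handing RA to its receptors in the nucleus, had 57 and 60 counts in DMSO and 700 and 695 in RA, a 9.67-fold rise from 3.26 ± 0.04 to 31.6 ± 1.1 CPM (edgeR adjusted p = 6.2e-15). Crabp1 (chr9:54764748-54773110, plus strand), which holds RA in the cytoplasm, was at 17.2 and 18.1 CPM in DMSO and at 14.97 and 16.9 CPM in RA. Its log2 fold change of -0.15 (standard error 0.14) did not pass the test (edgeR adjusted p = 0.391), and it was 0.04 when libraries were scaled by their total alone and -0.67 (edgeR adjusted p = 2.4e-04) with ESC as the control.

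Of the receptors only Rarb passed both limits. Rarb (chr14:16430839-16819156, minus strand) is the receptor gene long known as an RA target, and its 2 and 5 counts in DMSO became 248 and 197 in RA. The level went from 0.194 ± 0.11 to 10.04 ± 1.2 CPM, or 5.64 ± 0.42 (SE) on the log2 scale (edgeR adjusted p = 7.4e-12), and 8.03 on that scale with ESC, at 1 and 0 counts, as the control. Rarb shares 1793 of its 5265 exon bases with Top2b, which lies on the opposite strand, and whether counting used strand is not given in the sources used here, so reads in that stretch cannot be told apart. Top2b was at 193 ± 5.6 CPM in DMSO and 144 ± 8.1 CPM in RA. Rarb had 1 and 0 counts in ESC with Top2b at 72.5 ± 3.5 CPM. The part of Top2b reads in the Rarb counts was not tested. Rara (chr11:98927818-98974942, plus strand), a broadly expressed receptor, was at 76.9 and 78.3 CPM in DMSO and at 68.1 and 74.1 CPM in RA (log2 fold change -0.13, edgeR adjusted p = 0.226; 0.07 with scaling by library total alone). Rarg (chr15:102234938-102257517, minus strand), the most abundant RAR of these cells, was at 164 and 176 CPM in DMSO and 127 and 137 CPM in RA. Its log2 fold change of -0.37 (standard error 0.14) had an edgeR adjusted p of 0.025 but stayed inside the fold limit.

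**Figure D1:**
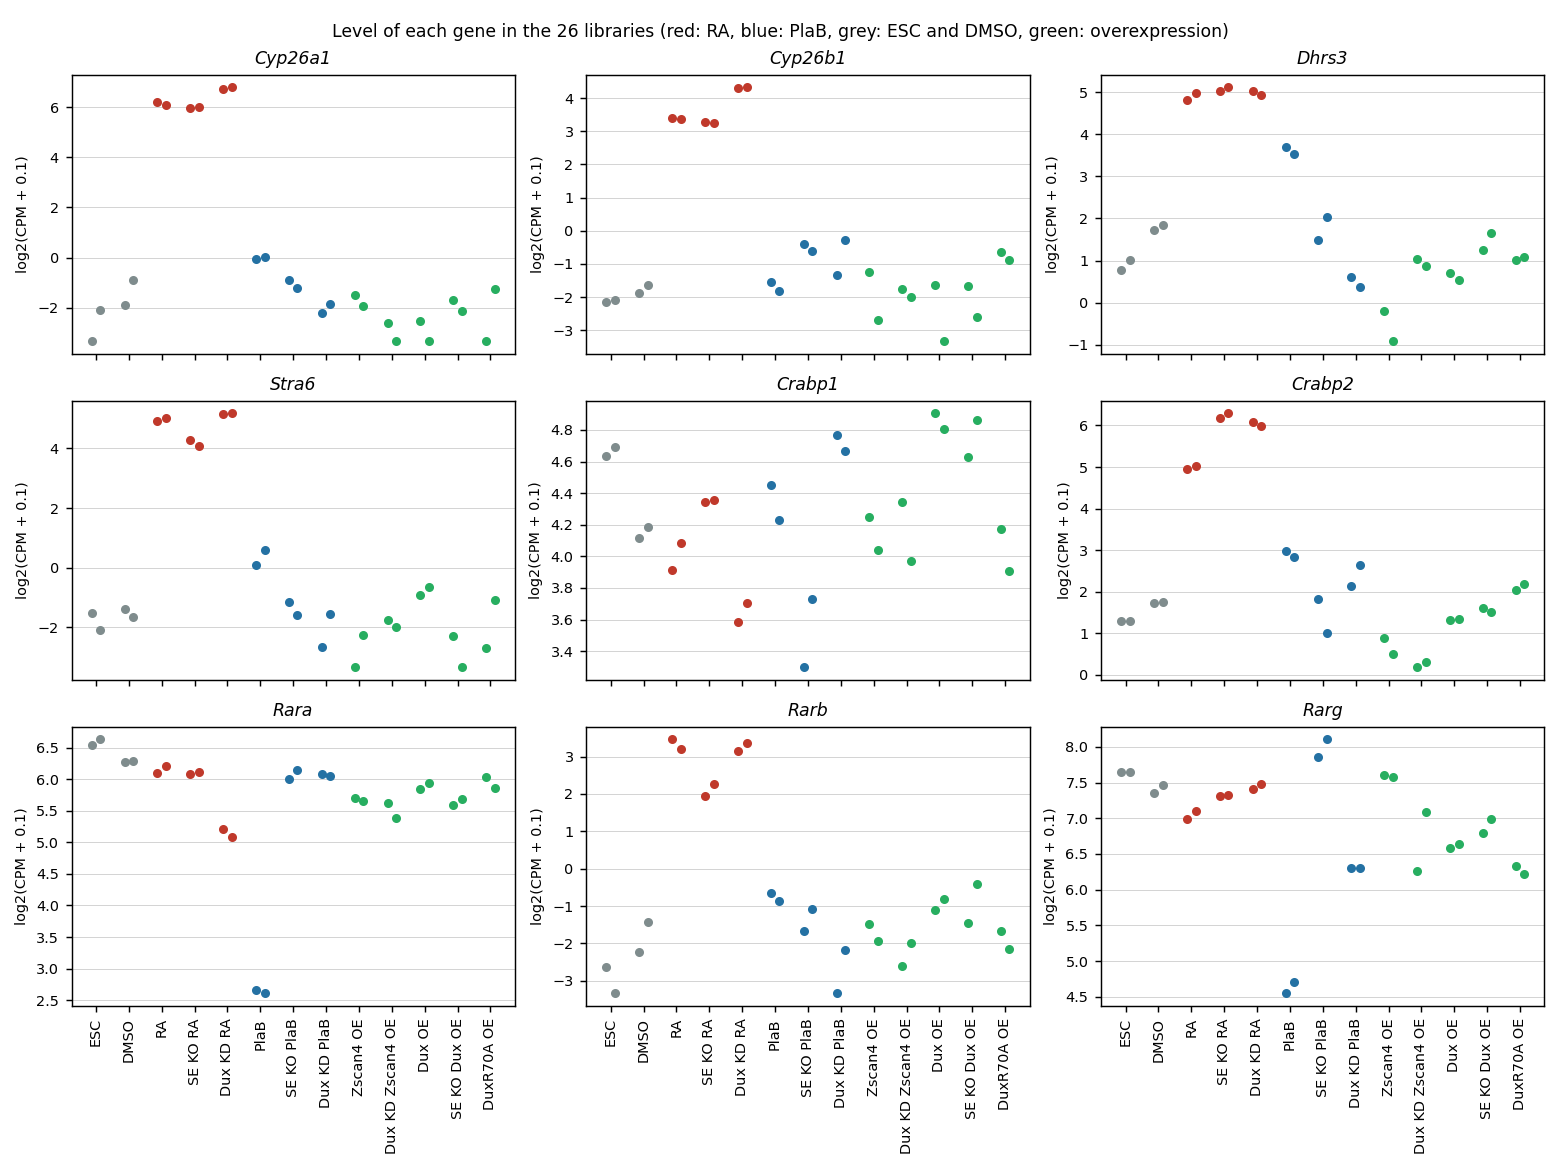
Level of each of the 9 genes in the 26 libraries, as log2(CPM + 0.1), with 1 point per library and the 13 groups along the horizontal axis. For Cyp26a1, Cyp26b1, Dhrs3, Stra6, Crabp2 and Rarb the 6 libraries of the RA groups lie above the other 20, whereas for Rara, Rarg and Crabp1 they lie among them.

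Across the whole series the 6 raised genes separated by RA, and the share of all genes that separate in this way was not computed. Each of the 6 libraries that received RA was above each of the 20 others for Cyp26a1 (63.0 to 111 CPM against 0 to 0.907), Cyp26b1 (9.35 to 20.02 against 0 to 0.717) and Rarb (3.77 to 10.9 against 0 to 0.654). The same held for Stra6 (16.8 to 36.2 CPM against 0 to 1.41), Crabp2 (30.8 to 78.4 against 1.04 to 7.75) and Dhrs3 (27.9 to 34.6 against 0.434 to 12.8). The highest of the 20 was a PlaB library for Cyp26a1, Stra6, Crabp2 and Dhrs3, a Dux KD PlaB library for Cyp26b1 and an SE KO Dux OE library for Rarb. For Rara, Rarg and Crabp1 the RA libraries lay inside the range of the others, which was 6.03 to 99.0 CPM for Rara, 23.4 to 275 CPM for Rarg and 9.75 to 29.9 CPM for Crabp1.

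In both altered backgrounds given RA, members were again higher than in wild-type DMSO. With no DMSO library of either genotype, a response to RA within these backgrounds was not measured. In SE KO RA, 6 of the 9 members were called higher than in DMSO and 0 lower (27.1% of all genes were called, 17.2% higher and 9.88% lower). Without SE KO RA replicate 1, the library with the conflicting label, 6 were called as well. In Dux KD RA, 6 were called higher and 1, Rara, lower (31.9% of all genes, 22.0% higher and 9.90% lower). Of the calls over all genes in Dux KD RA against DMSO, 69% were higher, and 80.5% with scaling by library total alone. The median log2 fold change of the members was 4.40 in SE KO RA and 4.33 in Dux KD RA, beside 0.046 and 0.15 over all genes. The 6 genes called higher were those called in RA, in comparisons that share the DMSO libraries. For Cyp26a1 the log2 fold changes against DMSO were 7.82 in RA, 7.67 in SE KO RA and 8.43 in Dux KD RA. For Stra6 they were 6.92, 6.14 and 7.13, and for Rarb 5.64, 4.40 and 5.56. For Dhrs3 they were 3.14, 3.31 and 3.22, the narrowest span of the 6.

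**Figure D2:**
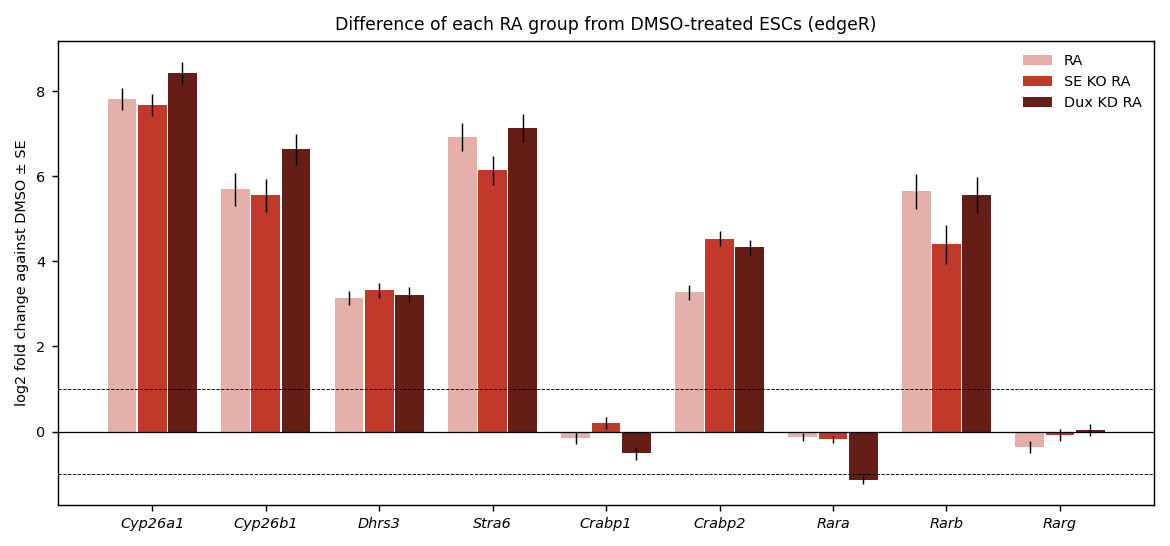
Log2 fold change against DMSO of each gene in the RA, SE KO RA and Dux KD RA groups, with standard errors from edgeR and dashed lines at the fold limit of 1. Bars of Cyp26a1, Cyp26b1, Dhrs3, Stra6, Crabp2 and Rarb stand above the limit in all 3 groups, and Rara in Dux KD RA lies below -1 (-1.13, and -0.87 with scaling by library total alone).

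The make-up of each family within a library was compared per length of exon. In DMSO, Crabp1 made up 89.9% ± 0.20 of the RPKM of the Crabp pair (SD, n = 2) and Crabp2 10.1% ± 0.20. In RA, Crabp2 made up 54.6% ± 1.3, in SE KO RA 69.3% ± 1.0 and in Dux KD RA 76.2% ± 2.0, so the order of the pair was inverted in each of the 6 RA libraries. In the 10 groups without RA the mean share of Crabp2 ranged from 3.61% in Dux KD Zscan4 OE to 18.1% in PlaB. Rarb stayed a small part of the receptor RPKM even after its rise, at 3.90% ± 0.67 in RA, 1.49% ± 0.22 in SE KO RA and 3.54% ± 0.34 in Dux KD RA, beside 0.0631% ± 0.035 in DMSO. Rarg held the largest share of the receptor RPKM in all 13 groups, from 54.8% in Dux KD PlaB to 80.5% in Dux KD RA. Rara made up 33.2% ± 0.34 in RA and 16.0% ± 1.3 in Dux KD RA.

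**Figure D3:**
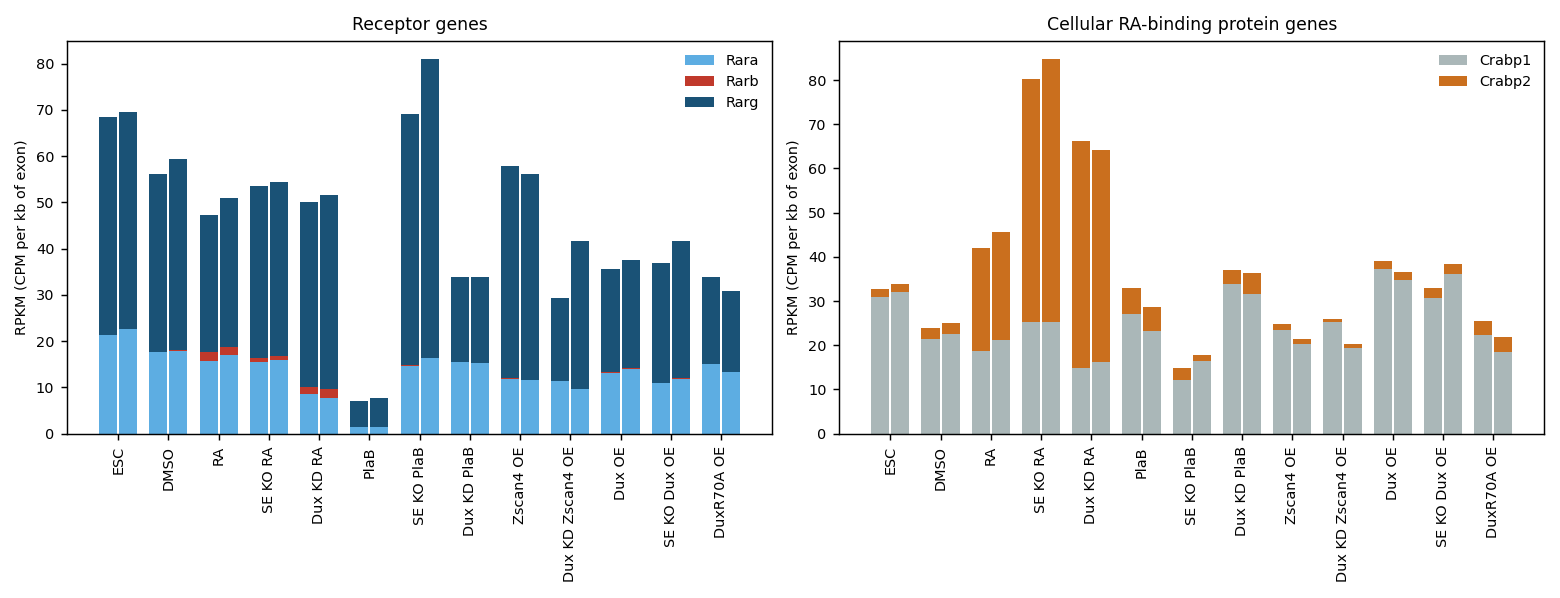
Receptor genes (left) and Crabp genes (right) in RPKM, stacked, with 1 bar per library and 2 bars per group. The Crabp2 part exceeds the Crabp1 part in the RA, SE KO RA and Dux KD RA bars, and the Rarb part is thin in every bar.

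In SE KO cells given RA, Rarb was lower and Crabp2 higher than in wild-type cells given RA. Between SE KO RA and RA, 1 member was called higher and 1 lower (17.6% of all genes, 6.57% higher and 11.0% lower). Rarb was at 10.9 and 9.17 CPM in RA and at 3.77 and 4.69 CPM in SE KO RA. It was thus 2.37-fold lower in SE KO RA (log2 fold change -1.24 ± 0.26 (SE), edgeR adjusted p = 3.3e-04). Top2b, on the other strand, was at 144 ± 8.1 CPM in RA and 140 ± 6.0 CPM in SE KO RA. Crabp2 was at 30.8 and 32.3 CPM in RA and at 72.9 and 78.4 CPM in SE KO RA, 2.39-fold higher (log2 fold change 1.26 ± 0.13 (SE), edgeR adjusted p = 1.5e-08). Without SE KO RA replicate 1, the library with the conflicting label, the log2 fold changes were -1.09 for Rarb (edgeR adjusted p = 0.0128) and 1.32 for Crabp2 (edgeR adjusted p = 7.1e-07).

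Among the others, Stra6 was 1.73-fold lower in SE KO RA, at 19.3 and 16.8 CPM against 30.3 and 32.2 CPM, which passed the p limit and not the fold limit (log2 fold change -0.79, edgeR adjusted p = 7.9e-04). Crabp1 differed by 0.35 on the log2 scale (edgeR adjusted p = 0.0448). Both hydroxylases were close to RA in SE KO RA, Cyp26a1 at 63.5 ± 0.75 against 70.6 ± 2.9 CPM and Cyp26b1 at 9.46 ± 0.165 against 10.4 ± 0.23 CPM (edgeR adjusted p = 0.391 and 0.645). Dhrs3, Rara and Rarg had log2 fold changes of 0.18, -0.05 and 0.28 that did not pass the test, with edgeR adjusted p of 0.307, 0.646 and 0.102.

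In Dux KD cells given RA, Rara was lower and Crabp2 higher than in wild-type cells given RA. Between Dux KD RA and RA, 1 member was called lower and 1 higher (10.9% of all genes, 4.54% lower and 6.41% higher). Rara was at 68.1 and 74.1 CPM in RA and at 37.1 and 33.8 CPM in Dux KD RA. The log2 fold change of -1.004 ± 0.09 (SE, edgeR adjusted p = 3.7e-09) sits on the fold limit: it was -0.94 with scaling by library total alone, -0.948 without RA replicate 2 and -0.94 without Dux KD RA replicate 2, and was called in 8 of 11 settings. Crabp2 was at 67.8 and 63.4 CPM in Dux KD RA, 2.08-fold above RA (log2 fold change 1.06 ± 0.13 (SE), edgeR adjusted p = 5.8e-07), and at 0.998 without Dux KD RA replicate 1. The hydroxylases were higher than in RA within the fold limit. Cyp26a1 was at 105 and 111 CPM in Dux KD RA against 72.6 and 68.5 CPM in RA (log2 fold change 0.61, edgeR adjusted p = 9.4e-04). Cyp26b1 was at 19.9 and 20.02 CPM against 10.6 and 10.2 CPM (log2 fold change 0.94, edgeR adjusted p = 0.00115), and passed the fold limit, at 1.01, with scaling by library total alone. Rarg differed by 0.40 (edgeR adjusted p = 0.0233). For Rarb, Stra6, Dhrs3 and Crabp1 the log2 fold changes were -0.08, 0.20, 0.08 and -0.36, with edgeR adjusted p of 0.832, 0.398, 0.682 and 0.0602.

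**Figure D4:**
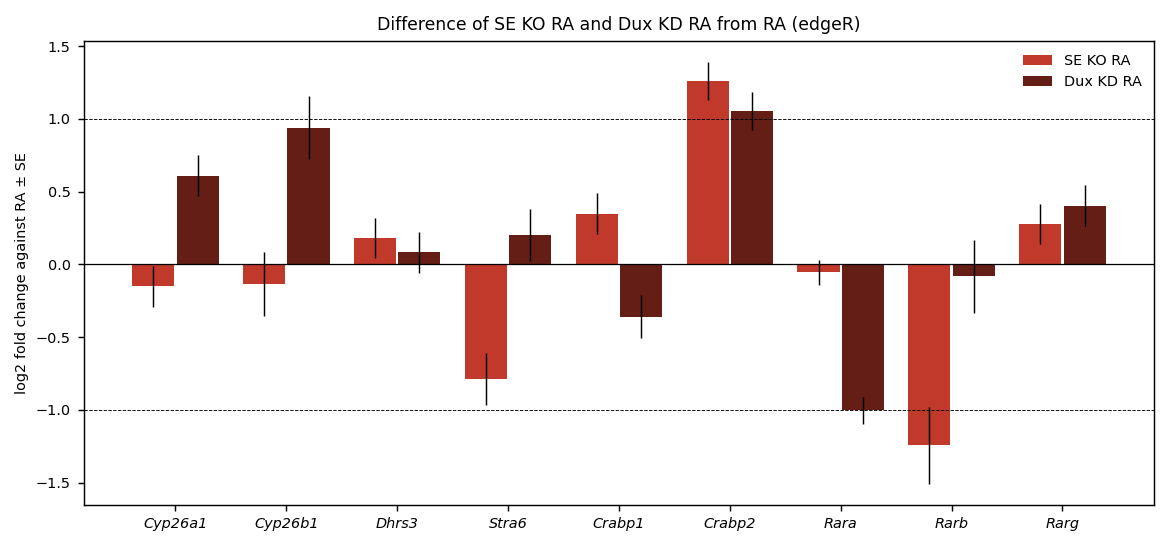
Log2 fold change of each gene in SE KO RA and in Dux KD RA against RA, with standard errors from edgeR and dashed lines at the fold limit of 1. Crabp2 is above 1 in both (1.26 and 1.06), Rarb below -1 in SE KO RA (-1.24), and Rara at the lower line in Dux KD RA (-1.004, or -0.94 with scaling by library total alone).

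Set directly against each other, SE KO RA and Dux KD RA differed in 2 called members, both lower in SE KO RA (28.2% of all genes were called). Rarb was 2.24-fold lower (log2 fold change -1.16, edgeR adjusted p = 5.4e-04), and Cyp26b1 was 2.11-fold lower (log2 fold change -1.07, edgeR adjusted p = 1.4e-04). Without SE KO RA replicate 1 these were -1.003 and -1.08 and 3 members were called. Stra6, Rara, Cyp26a1 and Crabp1 passed the p limit inside the fold limit, with log2 fold changes of -0.99, 0.95, -0.76 and 0.71. Crabp2, above RA in both groups, differed between them by 0.20 with a standard error of 0.13 (edgeR adjusted p = 0.178).

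PlaB left a different picture, in which the receptors of the untreated cell were low. Of the 9 members, 4 were called higher and 2 lower than in DMSO (58.9% of all genes were called). Rara was at 6.24 and 6.03 CPM in PlaB against 76.9 and 78.3 CPM in DMSO, 12.6-fold lower (log2 fold change -3.66 ± 0.11 (SE), edgeR adjusted p = 5.0e-21). Rarg was at 23.4 and 26.1 CPM against 164 and 176 CPM, 6.86-fold lower (log2 fold change -2.78 ± 0.15 (SE), edgeR adjusted p = 3.1e-15). For both genes the PlaB libraries were the lowest of all 26. Dhrs3 rose to 12.8 and 11.4 CPM (log2 fold change 1.84, edgeR adjusted p = 4.1e-10) and Crabp2 to 7.75 and 6.98 CPM (log2 fold change 1.17, edgeR adjusted p = 3.0e-06), both under every RA library. Stra6, with 20 and 31 counts, and Cyp26a1, with 18 and 20, had log2 fold changes of 2.22 and 1.52 (edgeR adjusted p = 2.4e-04 and 0.00625), the call of Cyp26a1 being lost without DMSO replicate 1 (1.01, edgeR adjusted p = 0.102). Rarb had 11 and 10 counts (edgeR adjusted p = 0.0597).

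In SE KO PlaB, 3 members were called higher and 4 lower than in PlaB (52.0% of all genes), and in Dux KD PlaB 2 higher and 4 lower (54.9% of all genes). Of the calls in SE KO PlaB, that of Cyp26b1 was lost in a fit of both groups alone, without PlaB replicate 2 and without SE KO PlaB replicate 1 (edgeR adjusted p = 0.067, 0.0939 and 0.0684). That of Cyp26a1 was lost in a fit of both groups alone, without PlaB replicate 2 and without SE KO PlaB replicate 2 (edgeR adjusted p = 0.117, 0.0563 and 0.0823). Rara stood at 67.6 ± 4.7 CPM in SE KO PlaB and 66.8 ± 0.63 CPM in Dux KD PlaB, log2 fold changes of 3.46 and 3.44 against PlaB (edgeR adjusted p = 2.2e-20 and 2.4e-20). Rarg was at 253 ± 31 CPM in SE KO PlaB, the highest group of the series, and at 79.1 ± 0.036 CPM in Dux KD PlaB. Dhrs3 fell to 3.35 ± 0.93 and 1.30 ± 0.15 CPM, log2 fold changes of -1.86 and -3.21 (edgeR adjusted p = 2.1e-10 and 1.6e-13). Cyp26a1 was at least 4.99-fold and Rarb at least 2.77-fold lower in Dux KD PlaB than in PlaB, against the floor of 3 counts per library. These values stand beside the weak PlaB pattern of both groups given above. The genotype effects under RA and under PlaB were compared by their difference, which was called for 8 of the 9 members with SE KO (49.0% of all genes; 5 to 7 when 1 library was left out) and for 7 with Dux KD (52.2% of all genes).

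**Figure D5:**
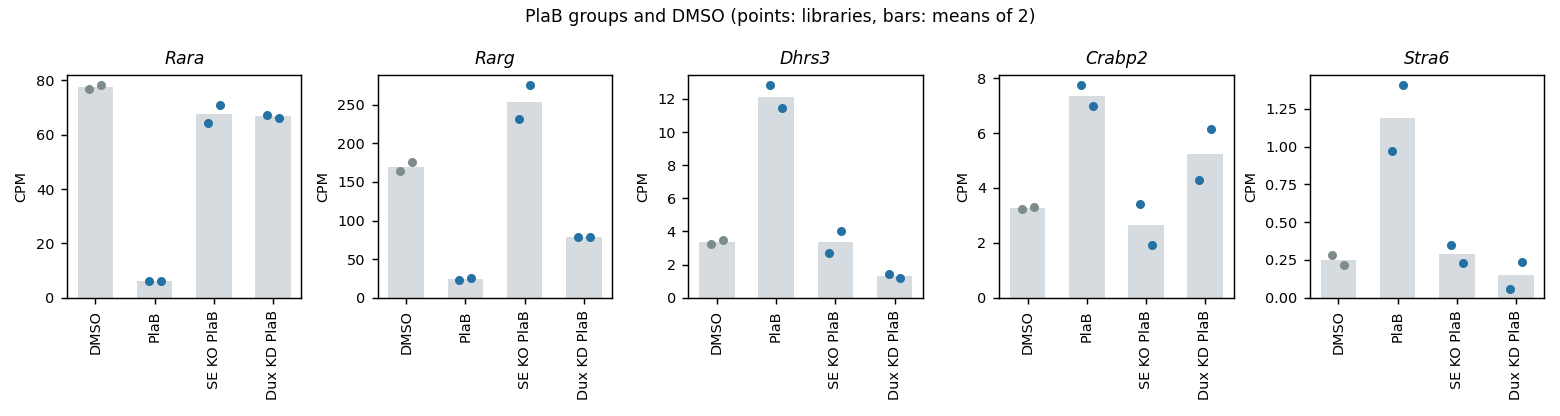
CPM of 5 of the genes in DMSO, PlaB, SE KO PlaB and Dux KD PlaB, each on its own linear axis from 0, with points for libraries and bars for the mean of 2. Rara and Rarg are lowest in PlaB, and Dhrs3, Crabp2 and Stra6 are highest there.

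In the groups without RA or PlaB, 0 to 2 members were called in each comparison, shares that are to be read beside those of all genes. DMSO against ESC gave no call by edgeR or by DESeq2 (16.2% of all genes were called by edgeR), with 4 members at an unadjusted p under 0.05. Dux OE gave 1 higher and 1 lower against ESC (9.51% of all genes). Rarg went from 201 and 200 CPM in ESC to 95.5 and 99.8 CPM in Dux OE (log2 fold change -1.04, edgeR adjusted p = 2.5e-06, and -0.997 with scaling by library total alone). Against ESC, Rara passed the p limit inside the fold limit in Dux OE and Zscan4 OE. Its log2 fold changes there were -0.69 and -0.91 (edgeR adjusted p = 1.1e-06 and 1.1e-08). Rara did so as well in the libraries labelled DuxR70A OE (-0.64, edgeR adjusted p = 1.5e-06) and in DMSO (-0.31, edgeR adjusted p = 0.0057). No library given doxycycline without an induced gene is in the design. In comparisons of induced groups with ESC, doxycycline and the induced gene therefore cannot be told apart. Rarb had 1 and 0 counts in ESC and 5 and 7 in Dux OE, at least 2.17-fold higher against a floor of 3 counts per library (edgeR adjusted p = 0.0133), a call lost under DESeq2 (adjusted p = 0.0555), without ESC replicate 2 and without Dux OE replicate 2 (edgeR adjusted p = 0.116 and 0.0768).

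The libraries labelled DuxR70A OE, in which Duxf3 was at 0, gave 1 member higher and 1 lower than ESC (16.9% of all genes, 60.4% of the calls higher, and 77.5% with scaling by library total alone). Rarg was at 80.8 and 74.4 CPM in them (log2 fold change -1.37, edgeR adjusted p = 1.3e-08). Cyp26b1 had 10 and 7 counts against 2 and 2 in ESC, at least 2.53-fold higher (edgeR adjusted p = 0.0358). That call was lost when any 1 of the 4 libraries was left out (edgeR adjusted p = 0.0592 to 0.141). Between the libraries labelled DuxR70A OE and Dux OE, Cyp26b1 was the 1 member called, at least 2.32-fold higher (13.6% of all genes, 44.8% of the calls higher, and 58.9% with scaling by library total alone). It was not called without DuxR70A OE replicate 1, DuxR70A OE replicate 2 or Dux OE replicate 2, with edgeR adjusted p of 0.117, 0.0523 and 0.301. Rarg differed there by -0.33 (edgeR adjusted p = 0.0713). Summed 2-cell-like markers were at 0.537 and 0.502 CPM in the libraries labelled DuxR70A OE, beside 19.6 to 23.0 in ESC. Summed ESC markers were at 5646 and 5437 CPM in the same libraries, beside 5637 to 5640 in ESC. What part such differences from ESC had in the member values was not tested.

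Zscan4 OE gave 1 member lower than ESC (11.6% of all genes, 62.3% of the calls higher, and 76.6% with scaling by library total alone). This was Dhrs3, with 12 and 8 counts against 26 and 29 (log2 fold change -1.57, edgeR adjusted p = 4.8e-04). In Dux KD Zscan4 OE it had 30 and 23 counts and was the 1 member called against Zscan4 OE, higher (log2 fold change 1.63, edgeR adjusted p = 4.8e-04; 11.1% of all genes). Rarg differed between the 2 Dux KD Zscan4 OE libraries, at 77.0 and 136 CPM. SE KO Dux OE against Dux OE gave 1 lower (6.30% of all genes), Stra6, with 4 and 0 counts against 6 and 8 (log2 fold change -2.94, edgeR adjusted p = 0.00445), which was lost without Dux OE replicate 2 (edgeR adjusted p = 0.0573).

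Over all 13 groups, Rara was highest in ESC (96.0 ± 4.1 CPM), followed by DMSO (77.6 ± 0.93), and lowest in PlaB (6.14 ± 0.15), with Dux KD RA (35.4 ± 2.3) next above it. RA, SE KO RA and SE KO PlaB overlapped in their replicates, each with the next in that order, as did Zscan4 OE and SE KO Dux OE. Rarg ran from SE KO PlaB (253 ± 31 CPM) and ESC (200 ± 0.69 CPM) down to the libraries labelled DuxR70A OE (77.6 ± 4.6 CPM) and PlaB (24.8 ± 1.9 CPM). Crabp1 was the flattest member, from 28.9 ± 1.4 CPM in Dux OE to 11.5 ± 2.4 CPM in SE KO PlaB, and most neighbours in its order overlapped.

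The wider pathway was described with 6 lists of 76 retinoid genes outside the 9 members, of which 63 were tested. In RA against DMSO, 29 were called higher and 4 lower, 52.4% of those tested beside 31.0% of all genes, and the median log2 fold change was 0.88 beside 0.11. SE KO RA against DMSO gave 26 higher and 4 lower (47.6% beside 27.1% of all genes). Dux KD RA against DMSO gave 29 higher and 6 lower (55.6% beside 31.9%).

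Among 14 tested textbook RA-responsive genes, 10 were called higher in RA and 1 lower, beside 20.6% and 10.4% of all genes. The Hox genes Hoxb1 and Hoxb4, which pattern the hindbrain and trunk, were at 0 in both DMSO libraries and at 34.6 ± 2.5 and 34.2 ± 1.6 CPM in RA, at least 207-fold and 204-fold higher against the floor of 3 counts per library. Hoxa3 was at 21.0 ± 0.18 CPM in RA, at least 126-fold higher. Meis1, a homeobox cofactor of Hox proteins, rose from 0.169 ± 0.16 to 8.82 ± 0.23 CPM (log2 fold change 5.67, edgeR adjusted p = 1.4e-10). Egr1, an immediate early gene, fell from 33.3 ± 1.5 to 7.39 ± 0.70 CPM (log2 fold change -2.17, edgeR adjusted p = 1.4e-10).

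Among 20 tested genes of synthesis and storage, 10 were called higher in RA and 2 lower, beside 20.6% and 10.4% of all genes. The alcohol dehydrogenases Adh4 and Adh7 were at 1.51 ± 0.42 and 0.814 ± 0.032 CPM in RA, at least 9.02-fold and 4.87-fold higher than in DMSO. Bco2, a carotenoid-cleaving enzyme, was at 1.36 ± 0.053 CPM, at least 8.12-fold higher, and Aldh1a7, an aldehyde dehydrogenase, at 0.615 ± 0.18 CPM, at least 3.67-fold higher. Adh5, an abundant alcohol dehydrogenase, fell from 404 ± 7.0 to 138 ± 1.9 CPM (log2 fold change -1.56, edgeR adjusted p = 7.3e-15), and Awat2, a retinol acyltransferase, from 0.9996 ± 0.29 to 0.230 ± 0.20 CPM (log2 fold change -2.11, edgeR adjusted p = 0.00329).

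Of 8 tested binding and uptake genes, 4 were called higher and 0 lower, beside 20.6% and 10.4% of all genes. Among them were Rbp3, Rbp4 and Lrp2, an endocytic receptor that takes up retinol-binding protein (2.63, 1.57 and 1.23 on the log2 scale). Of 10 receptors and partners, 3 were called higher and 1 lower, where 31.0% of all genes were called. Calls among the receptors and the short lists of coregulators and degradation genes were not far from that share. Nr2c1, an orphan nuclear receptor, rose from 5.07 ± 0.27 to 24.4 ± 0.54 CPM (log2 fold change 2.27, edgeR adjusted p = 2.0e-12). Nr2f1 and Nr2f2, also orphan receptors, stayed under 1 CPM, at least 2.47-fold and 2.99-fold higher. Rxrg, a partner of the RARs, fell from 3.65 ± 0.031 to 1.66 ± 0.57 CPM (log2 fold change -1.13, edgeR adjusted p = 0.00219). Of 8 coregulators, 1 was called, Nrip1, a ligand-dependent corepressor, at 67.3 ± 0.49 CPM in RA and 18.5 ± 0.50 CPM in DMSO. Of 3 degradation genes, 1 was called, Cyp26c1, the other member of the hydroxylase family, which rose from 0.196 ± 0.044 to 2.82 ± 0.50 CPM (log2 fold change 3.81, edgeR adjusted p = 8.1e-06).

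Between SE KO RA and RA, 6 of the 63 genes were called higher and 10 lower (25.4% beside 17.6% of all genes). Synthesis and storage held 7 of those lower, among them Adh4 (1.51 ± 0.42 CPM in RA, 0.199 ± 0.018 in SE KO RA, log2 fold change -2.88), Adh7 (log2 fold change -2.55) and the retinaldehyde dehydrogenase Aldh1a3 (1.54 ± 0.12 and 0.288 ± 0.012 CPM, log2 fold change -2.39). Nr0b1, an orphan receptor of the pluripotency network, fell from 21.0 ± 2.4 to 5.725 ± 0.34 CPM (log2 fold change -1.88, edgeR adjusted p = 1.1e-09). Between Dux KD RA and RA, 7 were called higher and 4 lower (17.5% beside 10.9%). The largest changes were those of Bco1, a carotenoid-cleaving enzyme (log2 fold change 2.47), Nr2f2 (2.08), Rlbp1, a retinaldehyde-binding protein (1.69), and Egr1 (-1.68). Cyp26c1, chosen here after its values were seen, was the remaining hydroxylase and was called in both. It was at 2.82 ± 0.50 CPM in RA, 1.25 ± 0.39 in SE KO RA (log2 fold change -1.16, edgeR adjusted p = 0.0348) and 6.13 ± 0.34 in Dux KD RA (log2 fold change 1.12, edgeR adjusted p = 0.0328).

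Genes with the most similar profile were sought by Pearson's r of log2 group means over the 13 groups, among 13360 genes whose mean log2 CPM reached 1. These r values describe groups that share their response to RA, and carry no test. Hoxa5 was the nearest to Cyp26b1 (r = 0.979) and the noncoding Hotairm1 to Stra6 (0.968). Hacd4 was the nearest to Dhrs3 (0.954) and Fut4 to Crabp2 (0.942). Rara was most like Lrfn4 (0.984), Rarg like Dpp9 (0.940) and Crabp1 like Rps6 (0.90). Among the members, Cyp26a1 and Stra6 had r = 0.967 over 13 groups and 0.507 over the 10 groups without RA, whereas Rara and Rarg had 0.770 and 0.822.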

How the data were processed

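The authors deposited whole-number counts of reads per gene, not normalized, for 26 libraries (NEBNext Ultra II, poly(A) RNA). The submitters' processing notes name FastQC, Trimmomatic, STAR, featureCounts, DESeq2 and the build mm10. Tool versions, strand and the treatment of multi-mapped reads are not given in the sources used here. All columns of the table were used, and gene positions are those of the table.

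Counts were tested in 1 model of all libraries with the quasi-likelihood F-test of edgeR 4.0.16 (R 4.3.3, limma 3.58.1) after filterByExpr and TMM scaling, with Benjamini-Hochberg adjustment over 20953 genes. Calls required adjusted p under 0.05 with at least 1 in absolute log2 fold change. Standard errors were derived from the fold change and its F statistic. Groups came from sample titles. Replicate numbers do not pair the libraries: deviations of same-numbered libraries correlated at -0.0113 to 0.00698 in the 5 comparisons of RA groups. Each library counted as 1 replicate. Chi-square per degree of freedom between replicates was 1.55 to 30.2, which does not show whether replicates were separate cultures. It was 30.2 in SE KO PlaB and 26.1 in Dux KD Zscan4 OE, and at most 9.81 in the other groups. The model shares its estimate of spread over all groups, so p-values of comparisons with SE KO PlaB or Dux KD Zscan4 OE may be too small. On simulated data with 200 changed genes among 20953, edgeR recovered 99.5% of the genes changed by 2 on the log2 scale for RA against DMSO and 92% for the interaction. The changed genes were drawn only from those above a limit of expected counts, and all genes were given the same dispersion. These shares therefore do not extend to genes with few counts, such as Cyp26a1, Cyp26b1, Rarb and Stra6 outside the RA groups.

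The members, lists and tests were chosen with earlier results of these data known. The named genes were the 9 members, the called list genes with the largest log2 fold changes (up to 4 per direction and list for RA against DMSO, up to 4 for SE KO RA or Dux KD RA against RA), and, of the 3 genes nearest to each member in profile, the first. Some genes that this rule names are not reported here. Alternatives were RLE scaling, scaling by library total alone, no filter, DESeq2 1.42.0, a fit of the compared groups alone, a replicate block, no fold limit, ESC as control and leaving out each library. Running them for the comparisons other than the 5 of RA groups was decided after the data were seen.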

Additional observations from a re-analysis of the deposited data

Results flagged for a closer look

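The effect of a genotype under RA was compared with its effect under PlaB by an interaction term in edgeR's quasi-likelihood model, with Benjamini-Hochberg adjustment over all genes, and 15 such differences among the members passed the limits. Of all genes, 49.0% were called in this difference with SE KO and 52.2% with Dux KD. Leaving out 1 library gave 5 to 7 called members with SE KO and 6 to 7 with Dux KD. The values are the log2 difference under RA minus that under PlaB, from 2 libraries in each of 4 groups. They stand beside the weak PlaB pattern of SE KO PlaB and Dux KD PlaB, whose part in them was not tested.

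For SE KO, Rara (-3.51) and Rarg (-3.08) had SE KO log2 differences of 3.46 and 3.35 under PlaB and -0.05 and 0.28 under RA. Crabp2 differed by 2.71 and Dhrs3 by 2.04, both lower with SE KO under PlaB, and Crabp1 by 1.17. Stra6 (1.22), Cyp26a1 (1.06) and Cyp26b1 (-1.63) rest on few counts in the PlaB groups, and their calls held in 9, 4 and 12 of 14 settings. That of Cyp26a1 was lost when any 1 of the 8 libraries was left out (edgeR adjusted p = 0.0517 to 0.163), without a filter (0.0751) and with the replicate block (0.0527), and that of Crabp1 without SE KO PlaB replicate 1. For Dux KD, Rara differed by -4.45 and Rarg by -1.27. Dhrs3 differed by 3.29. Crabp2 differed by 1.55, with Dux KD log2 differences of 1.06 under RA and -0.49 under PlaB, the latter inside the fold limit. Stra6 (3.16), Cyp26a1 (3.14) and Rarb (2.84) had 0 to 4 counts per library in Dux KD PlaB, so their size depends on the fit and is no bound, and the call of Rarb was lost without Dux KD PlaB replicate 1 (1.90, edgeR adjusted p = 0.079).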

How the results depend on the processing

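In the 5 comparisons of RA groups, 497 of 522 member values kept their direction and side of the limits over the alternatives. Of the rest, 9 became called, 5 lost the call and 11 turned sign, all of the last uncalled in the main analysis. With scaling by library total alone, the turned log2 fold changes were 0.067 for Rara and 0.044 for Crabp1 in RA against DMSO and 0.057 for Rarg in SE KO RA against DMSO. Rarg in Dux KD RA against DMSO became -0.027 without a filter and -0.20 with ESC as control, and Crabp1 in SE KO RA against DMSO -0.32 with ESC as control. Leaving out 1 library at a time gave log2 fold changes of -0.015 to 0.091 for Rarg in Dux KD RA against DMSO, -0.0063 to 0.17 for Dhrs3 and -0.21 to 0.043 for Rarb in Dux KD RA against RA, and -0.11 to 0.012 for Rara in SE KO RA against RA. It gave 1 to 2 members called in Dux KD RA against RA (1 without RA replicate 2, Dux KD RA replicate 1 or Dux KD RA replicate 2), 0 to 2 in DMSO against ESC, 1 to 2 in Dux OE against ESC, 1 to 1 in DuxR70A OE against ESC, 0 to 1 in DuxR70A OE against Dux OE, 0 to 2 in SE KO Dux OE against Dux OE, 1 to 2 in Dux KD Zscan4 OE against Zscan4 OE, and 5 to 7 for the difference of the SE KO effects. Without a fold limit the members called were 4 in SE KO RA against RA, 5 in Dux KD RA against RA, 6 in SE KO RA against Dux KD RA, 3 in DMSO against ESC, 5 in DuxR70A OE against ESC, 3 in Zscan4 OE against ESC, 3 in DuxR70A OE against Dux OE, 3 in SE KO Dux OE against Dux OE and 2 in Dux KD Zscan4 OE against Zscan4 OE. Scaling by library total alone gave 1 in DMSO against ESC and 1 in Dux OE against ESC, DESeq2 gave 1 in Dux OE against ESC, and the fit of the compared groups alone gave 1 in DuxR70A OE against ESC and 0 in DuxR70A OE against Dux OE (4 of 9 at an unadjusted p under 0.05 for the latter in the model of all libraries). Replicate numbers name samples only. The replicate block left all 45 member values of the RA comparisons on their side of the limits, as it did 43 of 44 in the others, the exception being Cyp26a1 in the difference of the SE KO effects (1.05, edgeR adjusted p = 0.0527). In the other comparisons 489 of 529 values kept their call and 40 lost it. Depth limits Cyp26a1, Cyp26b1, Rarb and Stra6 outside the RA groups, where 0 to 31 counts per library leave folds against them imprecise.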
